A study of Homo sapiens with 4 samples.

Results

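The regions described here are the stretches of open chromatin that ATAC-seq peak lists place on human chromosome 7. Intervals of all 4 peak lists of the series were merged wherever they overlapped by at least 1 bp, and every merged region on chromosome 7 was taken. This gave 3103 regions out of 53572 in the whole series, or 5.79%. The other 21 autosomes held 49023. Because the peak positions themselves chose the members, the number and placing of the regions are given as a description, and most contrasts below carry no test.

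Chromatin accessibility was mapped in 786-O, an established cell line from a human clear cell renal cell carcinoma. Tested cells received ACSS2i at 5 µM for 24 h, and vehicle cells received DMSO at the same volume and for the same time, with 2 libraries in each group, 4 in all. ACSS2i stands for an inhibitor of ACSS2, the enzyme that makes acetyl-CoA from acetate. The groups thus share the cell line and differ by the compound, and the comparison asks which accessible regions differ after it.

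In ATAC-seq the transposase Tn5 cuts DNA that is not wrapped tightly in nucleosomes, so a pile of fragment ends marks promoters, enhancers and other open sites. Acetyl groups on histone tails loosen nucleosomes, and acetyl-CoA is the donor of those groups. Chromosome 7 carries the receptor genes EGFR and MET, the HOXA cluster and the histone methyltransferase gene EZH2, and gain of this chromosome is frequent in papillary kidney cancer.

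The sequences of 5 open promoters are shown first, to set retained beside absent peaks at the level of the letters. PDIA4, PNPLA8 and ABCB8 had the strongest peaks over a start among the genes named below and kept them in both ACSS2i lists. ZNF212 and KDM7A were the strongest of those genes whose whole merged region over the start was called in both DMSO lists and in neither ACSS2i list. Each line gives the 250 bases before the start, 5′ to 3′ on the strand of the gene, from the RefSeq promoter table for GRCh38.p14. Capitals mark every match to the motifs spelled out further below, on either strand. The genes were picked by a rule on strength, after their values had been seen. The windows lie at chr7:149028491-149028740 (minus strand) for PDIA4, chr7:108526136-108526385 (minus) for PNPLA8, chr7:151028200-151028449 (plus) for ABCB8, chr7:149239401-149239650 (plus) for ZNF212 and chr7:140176984-140177233 (minus) for KDM7A.
PDIA4: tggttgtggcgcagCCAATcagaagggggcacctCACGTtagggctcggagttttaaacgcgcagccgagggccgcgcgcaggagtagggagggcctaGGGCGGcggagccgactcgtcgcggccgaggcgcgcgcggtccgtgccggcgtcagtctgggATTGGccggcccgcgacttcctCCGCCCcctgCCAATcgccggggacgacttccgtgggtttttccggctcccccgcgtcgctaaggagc
PNPLA8: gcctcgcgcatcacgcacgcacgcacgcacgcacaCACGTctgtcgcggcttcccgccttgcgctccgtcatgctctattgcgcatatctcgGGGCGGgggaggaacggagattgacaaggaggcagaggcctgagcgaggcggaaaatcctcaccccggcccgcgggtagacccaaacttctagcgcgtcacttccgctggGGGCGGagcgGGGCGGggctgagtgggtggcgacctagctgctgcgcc
ABCB8: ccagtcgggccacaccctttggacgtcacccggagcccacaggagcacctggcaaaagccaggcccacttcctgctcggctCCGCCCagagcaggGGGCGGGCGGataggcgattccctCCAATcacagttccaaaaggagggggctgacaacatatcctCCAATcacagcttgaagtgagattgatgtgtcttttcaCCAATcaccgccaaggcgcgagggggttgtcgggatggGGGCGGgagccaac
ZNF212: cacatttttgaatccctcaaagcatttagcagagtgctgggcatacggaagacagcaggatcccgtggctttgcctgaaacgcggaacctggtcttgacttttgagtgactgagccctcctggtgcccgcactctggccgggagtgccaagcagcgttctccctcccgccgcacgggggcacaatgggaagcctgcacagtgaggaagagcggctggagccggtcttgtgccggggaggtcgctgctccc
KDM7A: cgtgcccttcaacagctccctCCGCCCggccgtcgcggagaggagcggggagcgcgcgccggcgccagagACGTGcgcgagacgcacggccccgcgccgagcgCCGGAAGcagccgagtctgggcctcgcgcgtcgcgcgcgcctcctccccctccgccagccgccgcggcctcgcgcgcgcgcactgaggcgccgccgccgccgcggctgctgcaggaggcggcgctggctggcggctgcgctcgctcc

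All 250 printed bases of each window lay inside an accessible region. PDIA4 encodes a protein disulfide isomerase of the endoplasmic reticulum, PNPLA8 a phospholipase and ABCB8 a transporter of the inner mitochondrial membrane. The fold, which is the authors' enrichment of the summit over the local background of its own library, was 7.91 and 7.83 at PDIA4 in ACSS2i and 11.5 and 12.2 in DMSO. At PNPLA8 it was 8.31 and 7.17 in ACSS2i, against 10.4 and 12.6 in DMSO. At ABCB8 it was 7.99 and 6.06 in ACSS2i, against 9.91 and 12.5 in DMSO. At each of these 3 promoters both ACSS2i folds lay below both DMSO folds. Median folds were also lower in ACSS2i over all regions called in all 4 lists, as given further below. ZNF212, a zinc finger gene, had no ACSS2i peak and DMSO folds of 6.21 and 7.92. KDM7A, which encodes a histone demethylase, had no ACSS2i peak and DMSO folds of 4.61 and 9.24. The promoters differ in base composition, with G and C making up 70.8% of the window at PDIA4, 68.0% at PNPLA8, 61.6% at ABCB8, 61.2% at ZNF212 and 81.6% at KDM7A. PDIA4 held 2 GC boxes, 3 CCAAT boxes and 1 hypoxia response core, PNPLA8 3 GC boxes and 1 hypoxia response core, and ABCB8 4 GC boxes, of which 2 overlap, and 3 CCAAT boxes. KDM7A held 1 GC box, 1 ETS site and 1 hypoxia response core, and none of the searched letters occurred in the ZNF212 window.

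The 4 lists differed strongly in length, which touches every count that follows. They held 16400 and 22044 peaks in ACSS2i and 34696 and 50294 in DMSO, after summits that share an interval were counted as 1 peak. Each library's lowest background level, recovered from the fold and −log10 p columns, was 2.32 and 3.16 fragments per position in ACSS2i and 2.06 and 1.75 in DMSO. The sources used here give no read totals. Gene-end peaks at kidney and renal carcinoma markers were present for 5 and 7 of 10 genes in ACSS2i and for 7 and 7 in DMSO, with VIM, KRT8, KRT18 and VEGFA among those in all 4 lists and PAX2, NNMT and CA9 in none. Immune markers had a gene-end peak for 0 and 0 of 5 genes in ACSS2i and 0 and 1 in DMSO, endothelial markers for 0 of 4 in every list, and neuronal markers for 0 and 1 of 3 in ACSS2i and 2 and 2 in DMSO. Nothing in the labels says that replicates were separate cultures, so each p-value across libraries covers the spread of these 4 samples alone, and that spread may be technical.

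Fewer chromosome 7 regions were called after ACSS2i. The libraries had 957 and 1377 regions of chromosome 7 in ACSS2i and 1883 and 2775 in DMSO, and the groups did not overlap. Counted as peaks, there were 1001 and 1429 in ACSS2i and 1917 and 2808 in DMSO, a mean of 1215 ± 303 against 2363 ± 630 (SD, n = 2 each, two-sided exact permutation p = 0.333). No lower p can come from 2 libraries against 2. Peaks were also narrower, with median widths of 433 and 459 bp in ACSS2i and 599 and 565 bp in DMSO (two-sided exact permutation p = 0.333). Fewer open cells, a less open site in each cell and a difference in depth or background between libraries cannot be told apart in these bulk lists.

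Chromosome 7 made up a slightly larger share of the shorter lists. It held 6.10% and 6.48% of all peaks in ACSS2i and 5.53% and 5.58% in DMSO, a mean of 6.29 ± 0.268% against 5.55 ± 0.0410% (SD, n = 2 each). The difference of 0.739 percentage points had a two-sided exact permutation p of 0.333, 1 of 5 library-level comparisons made for this chromosome. With each list cut to its 16400 strongest peaks the shares were 6.10% and 6.37% in ACSS2i and 6.14% and 6.45% in DMSO, and the difference turned to -0.0579 points (exact permutation p = 0.667). The larger share was thus not seen at equal list length.

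Peaks of chromosome 7 stood on a high local background. Local background is the fragment coverage around a summit that the peak caller expects without a peak. It rises with the number of DNA copies as well as with the reads of the peak itself and of neighbouring open sites. Its median on chromosome 7 was 4.35 and 5.98 fragments per position in ACSS2i and 5.18 and 5.44 in DMSO, whereas on the other autosomes it was 3.43 and 4.89 in ACSS2i and 4.01 and 4.60 in DMSO. The ratio of chromosome 7 to the other autosomes was 1.27 and 1.22 in ACSS2i and 1.29 and 1.18 in DMSO. Ranked among the 22 autosomes, chromosome 7 was at place 2 in both ACSS2i libraries and at places 1 and 5 in DMSO. Averaged over the 4 libraries its ratio was 1.24 and the highest of the 22, followed by chromosome 8 at 1.20, with chromosome 14 lowest at 0.653.

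The elevation did not differ between treatments beyond the spread of the libraries. The ratio averaged 1.25 ± 0.0330 in ACSS2i and 1.24 ± 0.0786 in DMSO (SD, n = 2 each), a difference of 0.00909 with a two-sided exact permutation p of 1. Summits whose background was at the lowest level of the library made up 0.625% and 2.13% of chromosome 7 summits in ACSS2i and 0.718% and 3.69% in DMSO, compared with 6.81% and 11.5% in ACSS2i and 4.42% and 6.59% in DMSO on the other autosomes. In isolated peaks, where neighbouring open sites add little but the reads of the peak itself remain, the ratio was 1.28 and 1.24 in ACSS2i and 1.26 and 1.14 in DMSO. In the weaker summits of each library it was 1.26 and 1.17 in ACSS2i and 1.22 and 1.06 in DMSO. DNA copy number was not measured. Copies, crowding of open sites and the reads of the peaks themselves cannot be told apart from these lists alone.

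**Figure D1:**
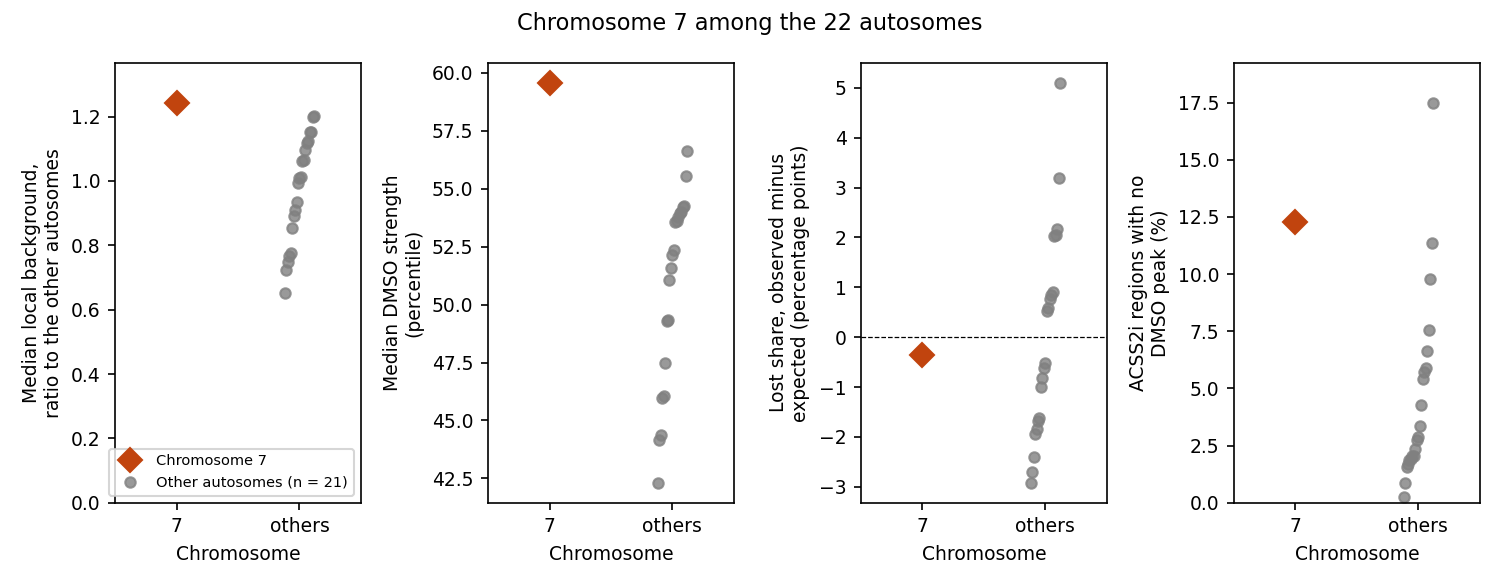
Each panel plots chromosome 7 (orange diamond) beside the other 21 autosomes (grey points): the ratio of median local background to the other autosomes averaged over 4 libraries, the median DMSO strength in percentiles (axis not from 0), the lost share minus its expected value in percentage points, and the percentage of ACSS2i regions with no DMSO peak. Chromosome 7 is highest for background (1.24) and strength (59.6), near the middle for matched loss (-0.353 points) and second to chromosome 8 for ACSS2i-only regions (12.3%).

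Summit heights followed the background. The median pileup, the number of fragments over a summit, was 23 and 28 on chromosome 7 in ACSS2i and 30 and 39 in DMSO. On the other autosomes it was 19 and 24 in ACSS2i, against 25 and 34 in DMSO. The fold, which divides by the background, was close in both sets, with medians of 4.56 and 4.16 on chromosome 7 in ACSS2i and 5.34 and 6.53 in DMSO, against 4.65 and 4.31 in ACSS2i and 5.35 and 6.66 in DMSO elsewhere. Significance followed the pileup rather than the fold. The median −log10 q, the peak caller's own score of confidence within its library, was 7.11 and 7.71 on chromosome 7 in ACSS2i and 11.5 and 18.4 in DMSO, against 6.20 and 7.16 in ACSS2i and 10.1 and 16.7 in DMSO on the other autosomes.

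Along the chromosome the regions were uneven. Density averaged 19.5 regions per Mb, place 8 of the 22 autosomes, where the others ran between 10.2 on chromosome 13 and 32.0 on chromosome 19. There were 3.31 regions for each coding gene, again place 8. In 16 bins of 10 Mb (the last of 9.24 Mb) the count was highest between 100 and 110 Mb, with 289 regions and 118 coding genes, and lowest between 60 and 70 Mb, with 83 regions and 37 coding genes. That sparse bin overlaps the longest stretch without any region, chr7:57540960-63926353, which makes up part of the bin, covers the centromere and held 12 coding genes in 6.39 Mb. The next longest stretches, chr7:70197360-71626290 and chr7:56106822-57505263, were 1.43 and 1.40 Mb long and held 0 and 7 coding genes.

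The densest bin held 100 and 128 called regions in ACSS2i and 184 and 273 in DMSO. The sparsest bin held 30 and 43 in ACSS2i and 62 and 78 in DMSO. Both ACSS2i libraries had fewer regions than either DMSO library in 16 of the 16 bins, as in the whole lists, which were shorter in ACSS2i.

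Local background varied along chromosome 7. Averaged over 4 libraries, its ratio to the other autosomes was highest between 70 and 80 Mb, at 1.62, and from 150 Mb to the end of the long arm, at 1.60. It was lowest between 10 and 20 Mb, at 0.923. In the bin at 70 Mb all libraries were high, with 1.50 and 1.80 in ACSS2i and 1.53 and 1.66 in DMSO. In the bin at 10 Mb the libraries spread, with 1.17 and 0.906 in ACSS2i and 1.02 and 0.604 in DMSO. The same spread was seen between 80 and 90 Mb, with 1.22 and 0.919 in ACSS2i and 1.09 and 0.654 in DMSO. DMSO replicate 2, the library with the most peaks, thus had the widest range along the chromosome, between 0.604 and 1.77, and ACSS2i replicate 1, the library with the fewest, the narrowest, between 1.14 and 1.50. In bins of 5 Mb the highest mean ratio was 1.87 and the lowest 0.867.

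**Figure D2:**
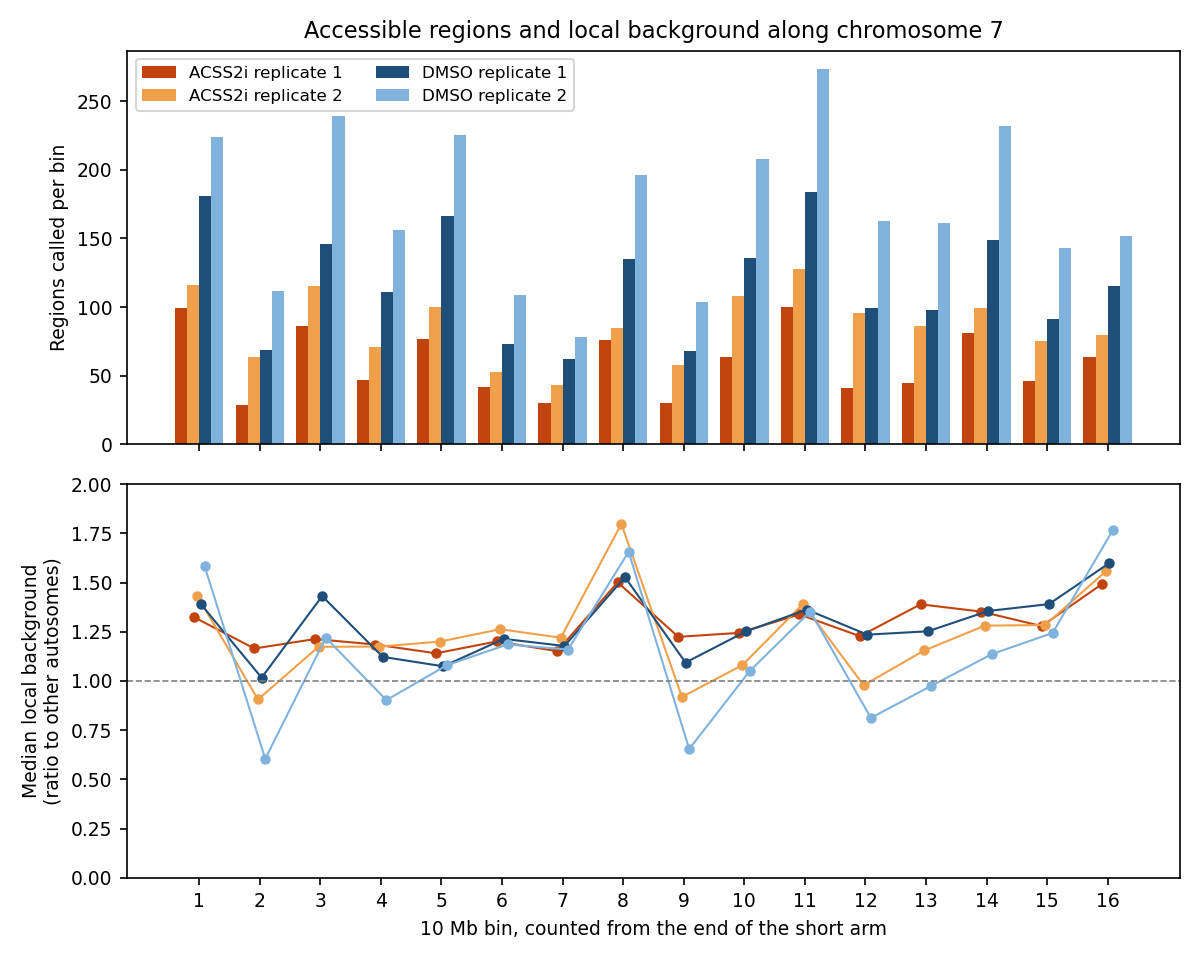
The upper panel plots the number of regions called in each 10 Mb bin of chromosome 7 and the lower panel the median local background as a ratio to the other autosomes (dashed line at 1), in ACSS2i libraries (orange) and DMSO libraries (blue). Region counts are highest in bin 11 and lowest in bin 7 in the merged set, and background peaks in bins 8 and 16, with DMSO replicate 2 falling to 0.604 in bin 2.

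Regions of chromosome 7 were strong in the vehicle libraries. Each peak was ranked by −log10 q among the peaks of its own library, its percentile was called strength, and a region took the lower of its 2 DMSO percentiles. The 1738 regions called in both DMSO lists had a median strength of 59.6, the highest of the 22 autosomes, where the others ran between 42.3 on chromosome 14 and 56.6 on chromosome 1 with a median of 52.1. When all such regions of the autosomes were cut into 10 classes of equal size, the strongest class held 315 of chromosome 7, which is 18.1% of its vehicle regions. Chromosome 7 supplied 10.3% of that class, compared with 5.66% of vehicle regions overall. Local background was high on the same chromosome, and its part in the strength ranking was not tested.

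The strongest region of chromosome 7 lay at chr7:130009347-130010985, 7.30 kb from ZC3HC1, which encodes a nuclear protein, and outside any coding gene. Its fold was 9.17 and 7.78 in ACSS2i, against 9.71 and 11.9 in DMSO. The next, chr7:158818330-158819173, lay inside ESYT2, a tether between the endoplasmic reticulum and the plasma membrane, with folds of 10.6 and 10.4 in ACSS2i, against 10.4 and 14.1 in DMSO. At ESYT2 the ACSS2i values overlapped the DMSO range, whereas at ZC3HC1 both were below it. The promoters of PDIA4, PNPLA8 and ABCB8 printed above belong to the same 10 strongest regions.

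Other strong regions lay inside coding genes or between them. One at chr7:55185514-55186923 lay inside EGFR, the receptor of epidermal growth factor, 24.7 kb from an end of the gene, with folds of 8.34 and 7.36 in ACSS2i, against 9.66 and 10.6 in DMSO. Another at chr7:151753988-151754753 lay inside PRKAG2, a regulatory subunit of the energy sensor AMPK, with folds of 7.68 and 8.08 in ACSS2i, against 10.8 and 15.2 in DMSO. Both had lower folds in both ACSS2i libraries than in either DMSO library. The remaining 3 of the 10 lay between coding genes. They were 106 kb from SDK1, a cell adhesion gene, 139 kb from SHH, a secreted morphogen, and 36.5 kb from EEPD1. The region on the side of SHH covers an annotated start of LOC124901788. That on the side of SDK1 lies 2.965 kb from an annotated start of LOC124901574. The region on the side of SDK1, chr7:3194586-3195339, had folds of 7.68 and 5.00 in ACSS2i, against 11.2 and 15.9 in DMSO. Over the 839 regions of chromosome 7 called in all 4 lists, the median fold was 4.84 and 4.97 in ACSS2i and 7.02 and 10.1 in DMSO, and over the 12254 of the other autosomes it was 4.90 and 4.87 in ACSS2i and 6.89 and 9.79 in DMSO.

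The widest regions held several summits. The widest, chr7:139680033-139683892, spans 3860 bp inside HIPK2, a nuclear kinase, with up to 8 summits in 1 list and folds of 5.88 and 5.45 in ACSS2i, against 6.31 and 6.10 in DMSO. The next lay inside GTF2IRD1, a transcription factor gene, and spans 3804 bp, with folds of 4.81 and 3.35 in ACSS2i, against 5.15 and 4.78 in DMSO. The last of the 3 covered the start of CAV1, which encodes the caveolae protein caveolin-1, over 3716 bp, with folds of 6.27 and 4.54 in ACSS2i, against 5.67 and 5.51 in DMSO. At GTF2IRD1 and CAV1 the groups overlapped. Over all members the median width was 543 bp, against 566 bp on the other autosomes.

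Of the 1738 vehicle regions of chromosome 7, 498 were called in neither ACSS2i list, and these are called lost here. They made up 28.7%, against a background of 33.4% over the vehicle regions of the other autosomes and 33.5% over the whole series. The raw share was low for a chromosome, at place 21 of 22, and the others ran between 28.2% on chromosome 17 and 46.4% on chromosome 14. All 4 lists held 839 of the vehicle regions, or 48.3%, which was place 2. Chromosome 7 regions were also stronger, so the share was compared at matched strength. In each of the 10 strength classes the lost share of the other autosomes was taken, and these were weighted by the class sizes of chromosome 7. The expected share was 29.0% and the observed share minus the expected one was -0.353 points, at place 11 of 22. The other autosomes ran between -2.92 points on chromosome 21 and 5.10 on chromosome 14. The sign of so small a difference depended on the lists: it was 1.77 points without ACSS2i replicate 2 and 1.53 points at equal list length.

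The classes run from weakest (1) to strongest (10). In class 2 the lost share of chromosome 7 was 67.7% with an exact 95% binomial interval between 60.0% and 74.7%, against 73.2% on the other autosomes. In class 3 it was 53.3% (44.6% to 61.9%), against 60.7%, and in class 4 it was 39.3% (31.3% to 47.8%), against 47.5%. In class 7 it was 15.3% (10.2% to 21.6%), against 10.8%, and in class 8 it was 7.41% (3.89% to 12.6%), against 3.82%. The value of the other autosomes lay inside the interval in classes 2, 3, 4 and 7 and just outside it in class 8, and none of these classes was tested singly. In the strongest class 0 of 315 were lost, with an upper bound of 1.16%, against 0.0726% elsewhere. The intervals are Clopper-Pearson and cover counting error alone.

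**Figure D3:**
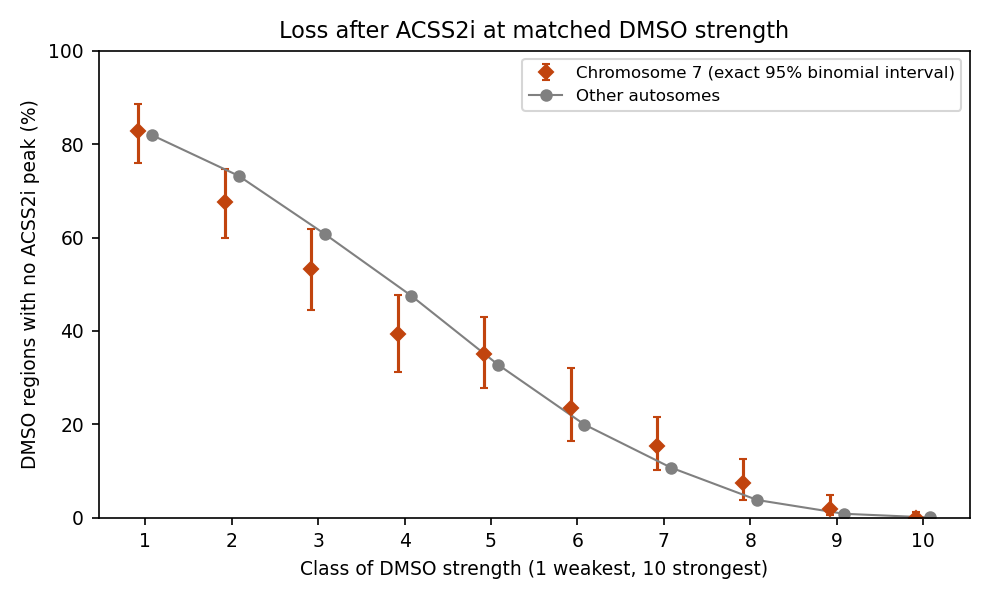
The percentage of regions of both DMSO lists with no ACSS2i peak is plotted against the class of DMSO strength, for chromosome 7 (orange diamonds with exact 95% binomial intervals) and for the other autosomes (grey line). Both fall steeply from over 80% in the weakest class towards 0 in the strongest, and chromosome 7 lies below the line in classes 2 to 4 and above it in classes 5 to 9.

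The ACSS2i libraries differed in how much they lacked. ACSS2i replicate 1 lacked 817 of the 1738 vehicle regions, or 47.0%, against an expected 45.3%, and ACSS2i replicate 2 lacked 580, or 33.4%, against an expected 33.9%. The lost share of chromosome 7 rested on which lists were used. It was 47.1% without ACSS2i replicate 2, 53.1% without DMSO replicate 1 and 6.07% when each list was cut to equal length, where the other autosomes had 52.0%, 55.7% and 6.36%. Leaving out an ACSS2i library adds lost regions by construction, since absence from 1 list then suffices. Without a DMSO library, presence in 1 DMSO list makes a vehicle region. Matching on the mean DMSO fold in place of strength gave a difference of -4.60 points, close to the -4.78 points without any matching.

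Along the chromosome the lost share ran between 20.9% in the bin at 20 Mb, which holds the HOXA cluster, and 35.7% in the bin at 40 Mb. In 15 of the 16 bins the expected share lay inside the exact interval of the observed one. The exception was the bin at 20 Mb, with 29 of 139 regions lost, an interval of 14.4% to 28.6% and an expected share of 28.6%. By position in genes, 71 of 462 vehicle regions within 1000 bp of the end of a coding gene were lost (15.4%), against 223 of 680 inside genes (32.8%) and 204 of 596 between genes (34.2%). Median strength of these vehicle regions was 73.9 at gene ends, 54.9 inside genes and 51.5 between genes.

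The strongest lost region of chromosome 7 lay inside GRM8, a metabotropic glutamate receptor gene. After it came chr7:155198862-155199642, which lay between coding genes, 98.2 kb from INSIG1, a regulator of sterol synthesis. This second region is 0.407 kb from an annotated start of LOC124901782. It had no ACSS2i peak and DMSO folds of 7.99 and 10.5. Another, chr7:77122357-77122592, lay 23 bp from the start of CCDC146 with DMSO folds of 9.22 and 12.8. A further one at chr7:131249078-131249353 lay inside MKLN1, a subunit of a ubiquitin ligase, with DMSO folds of 7.56 and 8.40. These regions had many fragments in DMSO, with pileups of 46 and 67 near INSIG1, 32 and 53 at CCDC146 and 46 and 73 in MKLN1.

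EGFR held both a strong retained region and a strong lost one. The lost region, chr7:55177094-55177482, lay inside the same gene, with DMSO folds of 6.97 and 9.83 and no ACSS2i peak. Further lost regions lay inside ANKIB1, 8.83 kb from the start of KRIT1, whose loss causes cavernous malformations of brain vessels, inside TYW1, an enzyme of transfer RNA modification, inside CUX1, a homeobox gene, and 8.83 kb from SPDYE1. Their DMSO folds were 7.07 and 11.6 in ANKIB1, 7.94 and 11.4 in TYW1, 6.91 and 9.56 in CUX1 and 8.53 and 10.8 near SPDYE1. All 10 of the strongest lost regions had a DMSO strength between 74.1 and 88.0, below the 99.7 reached by every one of the 10 strongest regions.

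A further set of regions was called after ACSS2i alone. Of 1489 regions of chromosome 7 in at least 1 ACSS2i list, 183 (12.3%, exact 95% interval 10.7% to 14.1%) were in neither DMSO list. The background was 5.62% over the other autosomes and 5.97% over the whole series. Only chromosome 8, with 17.5%, had a larger share, and the median of the others was 2.88%. The 2 libraries did not share these regions, and 161 were in ACSS2i replicate 2 alone, 21 in ACSS2i replicate 1 alone and 1 in both. In ACSS2i replicate 1 they were 22 of 957 regions (2.30%), against 1.65% on the other autosomes. In ACSS2i replicate 2 they were 162 of 1377 (11.8%), against 5.05% elsewhere. Without ACSS2i replicate 2 the count was 22, and with a −log10 q of at least 3 it was 85, or 6.52%, against 2.39% on the other autosomes. With lists of equal length it was 206, and the share of 17.1% then lay below the 18.3% of the other autosomes.

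These ACSS2i-only regions were faint. Their median −log10 q was 2.71 in ACSS2i replicate 1 and 2.95 in ACSS2i replicate 2, near the lower limit of 2 of the lists, against 7.54 and 9.34 for regions of the same libraries also called in DMSO. Median folds were 3.42 and 3.22, against 4.68 and 4.45. Merged widths were 180 and 243.5 bp, against 1045 and 1002 bp. In ACSS2i replicate 2, 86 of 162 had a −log10 q under 3 and 5 had one over 5. Their local background was 1.01 and 0.813 times the median of the other autosomes, compared with 1.23 and 1.21 for the shared regions of chromosome 7. They lay far from genes, with medians of 103 and 125 kb to the nearest end of a coding gene, against 10.3 and 14.5 kb, and 59.1% and 63.6% lay between genes, against 31.3% and 32.1%. The nearest region of a DMSO list was 59.8 and 44.7 kb away in the median. The part of strength, background and list length in these calls was not tested.

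The ACSS2i-only regions gathered in 5 bins, those starting at 10, 80, 110, 120 and 140 Mb. These held 112 of the 404 regions called there in any ACSS2i list (27.7%), against 71 of 1085 (6.54%) in the other 11 bins. Shares ran between 21.1% and 31.4% in the 5 bins and between 2.33% and 9.23% in the others. The bins were picked by these shares, so the contrast is a description. They held 45.0 coding genes each on average, against 64.8 in the others. ACSS2i replicate 1 contributed 11 regions to the 5 bins and 11 to the others, and ACSS2i replicate 2 contributed 102 and 60. In 3 of the 5 bins, at 10, 80 and 110 Mb, the local background of DMSO replicate 2 was 0.604, 0.654 and 0.812 times that of the other autosomes. In ACSS2i replicate 2 it was 0.906, 0.919 and 0.978 times in the same bins. In each of these 2 libraries they were the lowest values on the chromosome. The ratios there were 1.17, 1.22 and 1.23 in ACSS2i replicate 1 and 1.02, 1.09 and 1.24 in DMSO replicate 1. The part of local background in the calls was not tested.

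**Figure D4:**
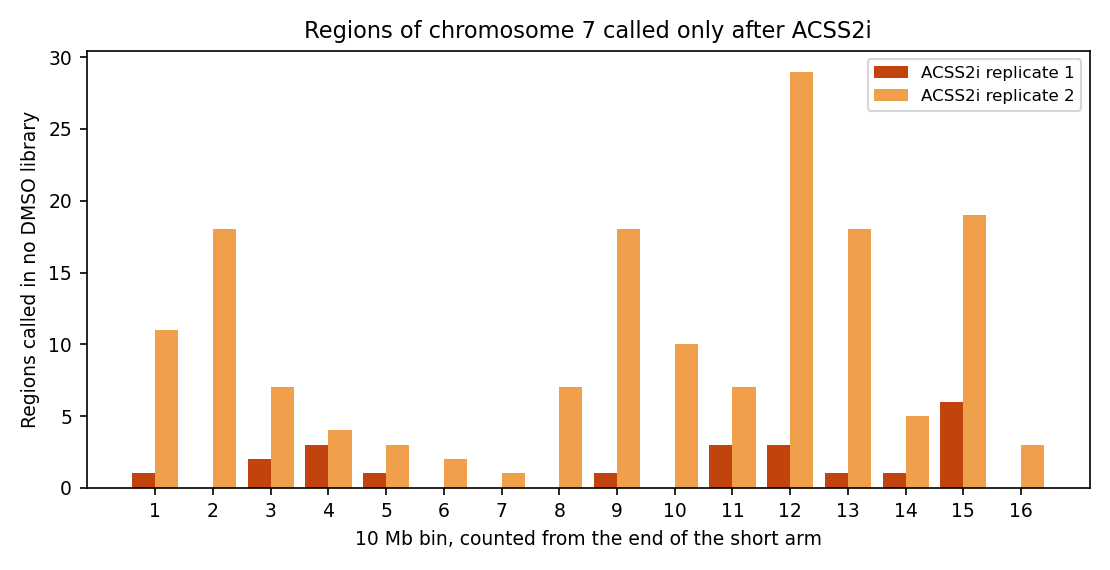
Bars give the number of regions of chromosome 7 called in each ACSS2i library and in neither DMSO library, by 10 Mb bin. ACSS2i replicate 2 supplies most of them, with 29 in bin 12, and ACSS2i replicate 1 reaches at most 6, in bin 15.

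The region called in both ACSS2i lists and no DMSO list was chr7:143849700-143850510, 0.865 kb from an end of TCAF1, a regulator of the cold channel TRPM8. Its fold was 4.37 and 3.55 and its −log10 q 6.01 and 3.88. In ACSS2i replicate 1 strong others lay inside RELN, which encodes the extracellular protein reelin, and 108 kb from CACNA2D1, a calcium channel subunit gene, at folds of 3.75 and 3.57. In ACSS2i replicate 2 they lay 74.3 kb from CHRM2, a muscarinic receptor gene, inside TFEC, a transcription factor gene, and inside DGKB, a diacylglycerol kinase gene, at folds of 4.82, 4.13 and 4.22. DMSO lists also held regions of their own, with 143 of 1883 in DMSO replicate 1 alone (7.59%) and 973 of 2775 in DMSO replicate 2 alone (35.1%), against 7.02% and 34.3% on the other autosomes.

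A gene was counted as having a gene-end peak when a peak lay within 1000 bp of either end of its span. Of 938 coding genes of chromosome 7, 331 and 413 had one in ACSS2i and 493 and 561 in DMSO. In both DMSO lists it was 490 genes, in all 4 lists 320, and 72 of the 490 were lost (14.7%), against a background of 18.8% on the other autosomes and 18.9% over the series. The median strength of the 490 was 76.1, against 65.3 elsewhere. The number lost moved with the lists used, and leaving out a library changes what counts as lost, as described above. It was 160 without ACSS2i replicate 2, 140 without DMSO replicate 1 and 18 of 339 (5.31%) at equal list length, where the other autosomes had 5.23%. A gene end can be the 3′ end or face a neighbouring gene. The counts of the gene lists that follow are to be read beside these shares, and lists of this size were not tested. Counted at the starts of the promoter table instead, 54 of 433 genes were lost (12.5%), against 17.6% elsewhere. Over the regions of chromosome 7 in all 4 lists, the median fold was 4.84 and 4.97 in ACSS2i and 7.02 and 10.1 in DMSO. Lower ACSS2i folds at a gene named below are therefore not particular to it. The share of all genes at which the groups do not overlap was not counted.

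Of 17 genes for secreted factors, 6 had a peak in both DMSO lists, 5 in all 4 and 1 was lost. NAMPT, an enzyme of NAD synthesis that is also secreted, had folds of 5.83 and 6.05 in ACSS2i, against 9.75 and 9.22 in DMSO. TFPI2, a protease inhibitor of the matrix, had 5.33 and 6.87 in ACSS2i, against 7.36 and 10.6 in DMSO. IL6, the cytokine interleukin-6, had 4.73 and 4.80 in ACSS2i, against 6.25 and 7.21 in DMSO. At NAMPT, TFPI2 and IL6 the groups did not overlap. IGFBP3, a carrier of insulin-like growth factors, was the lost member, with DMSO folds of 4.27 and 4.90. Genes with no gene-end peak in any list numbered 10, among them HGF, EPO, LEP and SHH.

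Receptors and signal transducers had 11 of 18 genes with a peak in both DMSO lists, 6 in all 4 and 1 lost. DOCK4, an activator of small GTPases, had folds of 8.08 and 8.30 in ACSS2i, against 7.98 and 10.5 in DMSO, and MET, the receptor of hepatocyte growth factor, had 5.10 and 6.14 in ACSS2i, against 7.50 and 12.8 in DMSO. FZD1, a Wnt receptor, had 6.30 and 5.36 in ACSS2i, against 7.63 and 12.0 in DMSO, and RHEB, the GTPase that activates mTORC1, had 5.58 and 6.02 in ACSS2i, against 8.40 and 8.92 in DMSO. The groups overlapped at DOCK4 and not at the other 3. RAC1, a GTPase of the actin cytoskeleton at chr7:6374527-6403967, was lost, with DMSO folds of 5.38 and 10.5. BRAF, EPHB4, GNAI1 and EPHB6 had a peak in both DMSO lists and in ACSS2i replicate 2 but not in ACSS2i replicate 1. At EPHB4 and EPHB6 no list held a peak within 1000 bp of a start in the promoter table. EGFR had no gene-end peak in DMSO replicate 1. Each of the 4 lists did hold a peak within 1000 bp of some EGFR start in the promoter table.

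Of 19 membrane, cytoskeleton and matrix genes, 15 had a gene-end peak in both DMSO lists, 11 in all 4 and 0 were lost, where over the chromosome 320 of 490 were in all 4 and 72 were lost. ZYX, a focal adhesion protein, had folds of 3.88 and 4.53 in ACSS2i, against 7.32 and 9.15 in DMSO. ITGB8, an integrin subunit, had 5.64 and 7.10 in ACSS2i, against 7.11 and 8.42 in DMSO, and WASL, an activator of actin branching, had 4.88 and 4.15 in ACSS2i, against 6.53 and 10.0 in DMSO. The groups were apart at these 3 genes. LAMB1, a laminin chain, had no peak in ACSS2i replicate 1 and a fold of 6.56 in ACSS2i replicate 2, against 6.47 and 3.45 in DMSO.

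The HOXA cluster encodes transcription factors that set position along the body axis, and its genes lie side by side. Peaks at the gene ends were called for 9 of 11 genes in both DMSO lists, for 6 in all 4 lists, and 2 were lost. HOXA10 and HOXA11 shared a peak with folds of 5.41 and 4.14 in ACSS2i, against 5.62 and 6.97 in DMSO, and HOXA6 had 4.41 and 3.45 in ACSS2i, against 5.01 and 5.95 in DMSO. At both of these peaks the ACSS2i folds were below both DMSO folds. No list held a peak within 1000 bp of a start of HOXA11 in the promoter table. At HOXA3, which had no gene-end peak, each of the 4 lists held a peak within 1000 bp of a start. The lost members were HOXA2 and HOXA13, both near the lower limit in DMSO replicate 1, with a −log10 q of 3.23 and 3.16 there and 11.1 and 20.4 in DMSO replicate 2. The cluster lies in the bin with the lowest lost share of the chromosome.

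Other transcription factors had 9 of 22 genes with a peak in both DMSO lists, 7 in all 4 and 2 lost, FOXK1 and IRF5. HBP1, a repressor, had folds of 6.29 and 6.03 in ACSS2i, against 8.55 and 8.70 in DMSO. SP4, which binds GC boxes, had 6.37 and 5.23 in ACSS2i, against 7.57 and 8.77 in DMSO, and ETV1, an ETS factor, had 4.05 and 5.09 in ACSS2i, against 6.57 and 9.74 in DMSO. CREB3L2, a factor of the secretory pathway, differed from these in that the groups overlapped, with 6.35 and 8.12 in ACSS2i, against 7.16 and 9.35 in DMSO. FOXK1, a regulator of metabolic genes, had DMSO folds of 7.30 and 5.13, and IRF5, an interferon regulatory factor, 4.02 and 6.37. At FOXK1 the merged region over the start was called in all 4 lists, with its ACSS2i peaks farther than 1000 bp from the gene end.

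Of 18 chromatin regulators, 12 had a gene-end peak in both DMSO lists, 11 in all 4 and 1, KDM7A, was lost, beside the 14.7% lost over all genes of the chromosome. Counted at the starts of the promoter table, SMARCD3 was lost as well as KDM7A. HDAC9, with no gene-end peak, had a peak near a start in all 4 lists. TRIM24, a reader of histone marks, had folds of 6.97 and 7.18 in ACSS2i, against 8.89 and 12.5 in DMSO, and H2AZ2, a histone variant, had 8.55 and 5.82 in ACSS2i, against 9.42 and 11.4 in DMSO. BAZ1B, a remodeller subunit, had 4.74 and 6.02 in ACSS2i, against 7.72 and 9.96 in DMSO. KMT2E, a protein of the histone methyltransferase family, had 5.82 and 6.32 in ACSS2i, against 6.21 and 7.08 in DMSO, where ACSS2i replicate 2 exceeded DMSO replicate 1. At the first 3 of these the groups did not overlap.

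Cell cycle and DNA replication genes had 13 of 16 gene ends open in both DMSO lists, 10 in all 4 and 1 lost. CDK13, a kinase of transcription, had folds of 7.90 and 7.58 in ACSS2i, against 9.13 and 8.66 in DMSO, and NCAPG2, a condensin subunit, had 7.37 and 5.71 in ACSS2i, against 9.28 and 14.5 in DMSO. CDK5 had 5.58 and 4.23 in ACSS2i, against 5.93 and 5.42 in DMSO and so overlapped, whereas POT1, which caps telomeres, had 5.03 and 4.77 in ACSS2i, against 8.81 and 13.3 in DMSO. CDK14, a cyclin-dependent kinase, was lost, and its DMSO libraries differed, with folds of 3.30 and 12.0. No start of CDK14 in the promoter table was under a peak of both DMSO lists.

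Of 21 measured metabolic genes, 16 had a peak in both DMSO lists, 15 in all 4 and none was lost, beside the 14.7% lost over all genes of the chromosome. The 16 were strong in DMSO, with a median strength of 93.2, against 76.1 over the chromosome. The part of strength in their retention was not tested. BPGM, an enzyme of red cell glycolysis, was the strongest, with folds of 11.4 and 10.0 in ACSS2i, against 10.3 and 14.2 in DMSO, so the groups overlapped. DLD and OGDH, subunits of the 2-oxoglutarate dehydrogenase complex, and MDH2, the mitochondrial malate dehydrogenase, act in the citric acid cycle. Their folds in ACSS2i were 7.61 and 8.33, 7.29 and 6.60, and 7.37 and 6.74, against 10.1 and 13.8, 10.4 and 13.2, and 9.73 and 13.0 in DMSO. PDK4, a kinase that inhibits pyruvate dehydrogenase, was the gene missing from 1 list, ACSS2i replicate 1. Sterol genes were also in all 4 lists, INSIG1 with folds of 6.10 and 5.17 in ACSS2i, against 5.13 and 9.09 in DMSO, and CYP51A1 with 5.46 and 6.52 in ACSS2i, against 7.86 and 9.79 in DMSO.

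Protein and RNA maintenance genes had gene-end peaks almost throughout, with 20 of 21 genes open in both DMSO lists, 14 in all 4 and none lost. Over all genes of the chromosome 14.7% were lost. The median strength of the 20 was 78.0, against 76.1 over the chromosome. After PDIA4 came CCT6A, a chaperonin subunit whose peak is shared with its neighbour PSPH, with folds of 6.17 and 8.29 in ACSS2i, against 7.01 and 8.15 in DMSO, so that ACSS2i replicate 2 was the highest of the 4. LSM5, a splicing factor, had 5.23 and 7.97 in ACSS2i, against 9.03 and 13.4 in DMSO, and YKT6, a protein of vesicle fusion, had none in ACSS2i replicate 1 and 5.57 in ACSS2i replicate 2, against 9.50 and 12.3 in DMSO. Genes of differentiated kidney epithelium, neurons and immune cells mostly had no gene-end peak. Kidney epithelium genes had 1 of 8 open in both DMSO lists, BMPER, which was lost, with DMSO folds of 4.15 and 6.45. Neuronal genes had 3 of 15, with MAGI2 in all 4 lists and GRM8 and VGF lost, and immune genes had 2 of 10, with NOD1 in all 4 lists and IRF5 lost. VGF had no peak within 1000 bp of a start in the promoter table in any list. With so few open members the shares lost in these lists carry little precision.

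**Figure D5:**
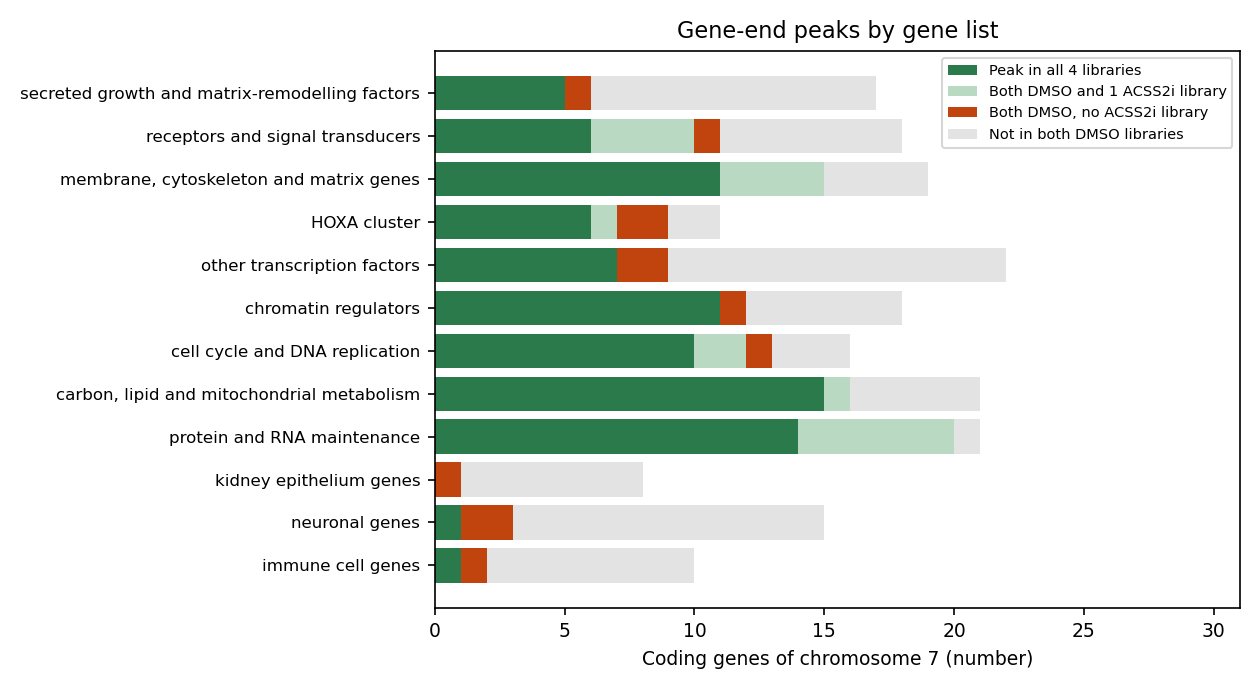
Bars give, for 12 lists of chromosome 7 genes, the number with a gene-end peak in all 4 libraries, in both DMSO and 1 ACSS2i library, in both DMSO and no ACSS2i library, and the rest. Metabolic, membrane, and protein and RNA genes show no lost member, where 72 of 490 genes were lost over the chromosome. Kidney epithelium, neuronal and immune genes have at most 3 open members.

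Promoter sequence was set beside the peaks for 1779 gene starts of chromosome 7 (1378 genes), each with the 250 bases before and 50 after the start. Of these, 723 were under a region, 662 under a region of both DMSO lists, 464 under one of all 4 lists, 74 under one that was lost and 1 under one of ACSS2i lists alone. Motifs were searched as plain letters on both strands, and their shares over all 35116 starts of the table were as follows. The GC box, searched as GGGCGG, was in 45.0% of windows. The CCAAT box, searched as CCAAT, was in 34.6%. The AP-1 site, searched as TGACTCA, was in 4.95% of windows, and the cyclic AMP response element, searched as TGACGTCA, in 1.85%. The ETS site CCGGAAG occurred in 10.3% of windows, and the hypoxia response core ACGTG in 21.4%. The YY1 core ATGGCG occurred in 10.7%, and the TATA box TATAAA in 11.5%. The TEAD site GGAATG occurred in 4928 of the windows, and the HNF1 core GTTAAT in 6.88%. A match describes the letters and says nothing of binding.

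Open starts of chromosome 7 were rich in G and C. Windows under a region averaged 65.0% G and C bases and 26.5 CG dinucleotides, against 51.9% and 9.92 in windows under no region. The GC box was in 71.9% of windows under a region, against 24.0% under none, and ETS in 21.2%, against 3.79%. The TATA box went the other way, with 4.84% under a region, against 14.1% under none. Among starts whose region was lost, 54 of 74 held a GC box (73.0%), against 75.4% of the starts kept in all 4 lists. AP-1 was in 7 of the 74 (9.46%), against 4.53% of those kept, and the hypoxia core in 29.7%, against 26.5%. As the 5 printed promoters show, lost starts could be as rich in G and C as kept ones, and lost windows averaged 67.6% G and C bases, against 65.0% of kept ones.

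Of 68 microRNA hairpins annotated on chromosome 7, 11 lay within 1000 bp of a region of both DMSO lists, of which 6 were in all 4 lists and 2 were lost. Over all vehicle regions of the chromosome 48.3% were in all 4 lists and 28.7% were lost. Numbers this small do not set the hairpins apart from those shares. The mature forms below belong to 3 of the 6 retained hairpins and to the pair next to lost regions, from RefSeq on GRCh38.p14, chosen after the values were seen. Capitals mark the seed, bases 2 to 8 from the 5′ end, which sets most of the pairing with messenger RNA targets.
hsa-miR-196b-5p: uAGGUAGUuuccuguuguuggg
hsa-miR-96-5p: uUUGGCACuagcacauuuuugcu
hsa-miR-589-5p: uGAGAACCacgucugcucugag
hsa-miR-6838-5p: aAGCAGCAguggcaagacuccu
hsa-miR-4648: uGUGGGACugcaaaugggag

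No 2 of the genes shared a seed. MIR196B lies in the HOXA cluster at chr7:27169480-27169563, within a region whose fold was 3.69 and 3.38 in ACSS2i, against 3.68 and 2.96 in DMSO. Here ACSS2i replicate 1 was the highest and DMSO replicate 2 the lowest of the 4. MIR96, part of a cluster of sensory organ microRNAs, lies at chr7:129774692-129774769, 585 bp from a region with folds of 3.72 and 2.55 in ACSS2i, against 4.58 and 6.85 in DMSO. MIR589 lies under a region with folds of 2.98 and 3.66 in ACSS2i, against 5.99 and 8.41 in DMSO. The regions near MIR6838 and MIR4648 were weak in DMSO replicate 1, with a −log10 q of 4.18 and 5.59, and had none in ACSS2i.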

How the data were processed

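Accessible chromatin was measured in 786-O cells, and the peak lists of 2 ACSS2i and 2 DMSO libraries, grouped by the labels, were used. Nuclei were treated with Tn5 and sequenced as read pairs of 150 bp, per the labels' protocols. Peak calling with MACS2 2.1.2, alignment software Bowtie2, the build hg38, trimming with Trimmomatic 0.38, and the tools bedtools, Picard 2.18.26 and SAMtools 1.9 are named, per the submitters' processing notes. Caller options, the filter applied to the lists, the handling of duplicates, the Tn5 shift and read totals are each not given in the sources used, so depth is unknown. The lists were called per library. The authors deposited a score (10 times −log10 q), a fold enrichment ratio over local background, −log10 p and −log10 q (a p-value and a q-value of the caller) and the summit offset in bp for each summit, and all of these are the authors' own values.

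Where several summits shared 1 interval, they made 1 peak, represented by the strongest summit. Pileup and local background were solved from fold and −log10 p under a Poisson model with 1 added to both, to a tolerance of 0.001, tested on simulated data. This background includes reads of the peak itself and of nearby peaks and is only a guide to DNA copies. Peaks of all lists were merged at an overlap of 1 bp. Strength was split into 10 classes over the autosomes. Library-level differences were tested with two-sided exact permutation, and shares carry exact 95% binomial intervals that cover counting error only. Gene names and positions are those of the RefSeq gene table for GRCh38.p14. Exons and introns were not analysed here. Python 3.11.15, numpy 2.4.6, pandas 2.3.3, scipy 1.17.1 and matplotlib 3.10.9 were used.

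The members and gene lists were chosen with earlier results of these data known. Regions named are the 10 strongest, the 10 strongest lost, those called in both ACSS2i lists alone, the 3 most significant in each ACSS2i library alone and the 3 widest, and from each gene list up to 4 of the strongest and up to 4 lost members. Genes named beyond that rule (such as BRAF, EPHB4, GNAI1, EPHB6, LAMB1, CYP51A1, PDK4 and those with no peak) were chosen after their values were seen. A few items that the rule names are not reported here. Alternatives were the merging overlap, a −log10 q of at least 3, equal list length, leaving out each library, the matching, the summits and chromosomes used, bin width and gene window.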

Additional observations from a re-analysis of the deposited data

How the results depend on the processing

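Of the alternatives listed at the outset, 46 values stayed within the tolerance set for them, 12 moved and 1 reversed, and of those chosen after seeing the data, all on gene-end peaks, 4 stayed and 3 moved. The matched difference in lost share, -0.353 points and not called, stayed within its interval but changed sign at equal list length (1.53 points), without ACSS2i replicate 2 (1.77), DMSO replicate 1 (0.658) or DMSO replicate 2 (0.124) and without chromosomes 3, 5, 8 and 14 (0.0503). With each list cut to the length of the shortest, chromosome 7 held 1405 regions, the lost share was 6.07%, genes with a lost gene-end peak numbered 18, and the ACSS2i minus DMSO difference in its share of peaks reversed to -0.0579 points; shorter DMSO lists are part of that alternative by construction. In the weaker summits the background ratio was 1.17 in ACSS2i replicate 2 and 1.06 in DMSO replicate 2. With a −log10 q of at least 3 there were 85 ACSS2i-only regions. The difference in lost share was -4.78 points with no strength matching and -4.60 points with classes of mean DMSO fold. The cause of these moves was not tested. Leaving out each library in turn gave 2162 to 3084 regions, lost shares of 33.3% to 53.1%, matched differences of -0.559 to 1.77 points, 22 to 259 ACSS2i-only regions, differences in peak share of 0.550 to 0.928 points and 75 to 160 genes lost. Leaving out a library changes by construction what counts as vehicle, lost or ACSS2i-only, so these ranges do not measure the spread of libraries alone.

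The labels number the replicates 1 and 2 in both groups without saying that a number pairs samples. Same-numbered libraries deviated together with a correlation of 0.166 over 13306 regions in all 4 lists, but with 2 pairs they share only a number. With the replicate block the difference in peak share was 0.739 points (exact sign-flip permutation p = 0.5). Without read totals, a region missing from a list may be present below its threshold.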
